A study of Mus musculus with 12 samples.

Results

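The 9 genes described here, Mbp, Mog, Mag, Mobp, Cnp, Qdpr, Opalin, Ugt8a and Cldn11, encode proteins of myelin and of mature oligodendrocytes. They were taken by their symbols from a table of 14909 genes, and each symbol matched 1 row. RNA of the frontal cortex of C57BL/6 mice was sequenced from 5 Upf3b-null mice (KO 1, 2, 3, 4 and 6) and 7 wild-type mice (WT 1 to 7), with 1 library per mouse. The comparison asks which cortical transcripts differ when Upf3b, an X-linked cofactor of nonsense-mediated mRNA decay, is missing. The labels name no tissue or cell type to which the loss of Upf3b is limited, and the sources used here do not give the age or sex of the mice, the colony or how the null allele was made.

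Myelin is the layered membrane that oligodendrocytes wrap around axons so that impulses travel fast. Oligodendrocytes arise from dividing precursor cells, pass through a committed stage, and then switch on the genes of the sheath under the transcription factors SOX10 and MYRF. The sheath has a compact part, whose membranes are held together by small basic proteins, and a noncompact part along the axon and at the edges, which holds adhesion proteins, junctions and cytoplasm. In the grey matter of the frontal cortex these cells are a minority, and their mature transcripts are long known as markers of the myelinating stage.

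Promoters are shown for the genes in which letters bound by these factors are most frequent, and for Qdpr, which has none and which differed most between the groups. Sequences are from RefSeq on GRCm38.p6, cover the 250 bases before the start site, run 5′ to 3′ on the gene's strand, and have matches in capitals. The SOX letters searched were ACAAAG and the MYRF letters CTGGCAC or CTGGTAC, on both strands, so that a SOX match can also read CTTTGT and a MYRF match GTGCCAG or GTACCAG, and no match of one overlapped a match of the other.
Mobp, chr9:120149492-120149741, plus strand: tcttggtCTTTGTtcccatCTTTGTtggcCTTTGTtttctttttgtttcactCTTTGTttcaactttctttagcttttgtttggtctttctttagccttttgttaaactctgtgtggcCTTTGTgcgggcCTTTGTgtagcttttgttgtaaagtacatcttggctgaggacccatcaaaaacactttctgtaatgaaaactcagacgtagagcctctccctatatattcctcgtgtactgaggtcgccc
Cnp, chr11:100574689-100574938, plus strand: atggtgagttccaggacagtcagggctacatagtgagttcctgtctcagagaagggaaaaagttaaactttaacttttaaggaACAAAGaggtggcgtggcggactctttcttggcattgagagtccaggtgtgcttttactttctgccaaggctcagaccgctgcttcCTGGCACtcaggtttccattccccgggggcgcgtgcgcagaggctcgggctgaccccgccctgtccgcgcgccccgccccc
Mag, chr7:30914864-30915113, minus strand: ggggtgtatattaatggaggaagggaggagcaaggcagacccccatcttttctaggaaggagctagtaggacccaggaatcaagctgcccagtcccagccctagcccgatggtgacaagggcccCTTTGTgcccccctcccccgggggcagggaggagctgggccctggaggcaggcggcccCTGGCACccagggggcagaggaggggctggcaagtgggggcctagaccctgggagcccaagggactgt
Qdpr, chr5:45450230-45450479, minus strand: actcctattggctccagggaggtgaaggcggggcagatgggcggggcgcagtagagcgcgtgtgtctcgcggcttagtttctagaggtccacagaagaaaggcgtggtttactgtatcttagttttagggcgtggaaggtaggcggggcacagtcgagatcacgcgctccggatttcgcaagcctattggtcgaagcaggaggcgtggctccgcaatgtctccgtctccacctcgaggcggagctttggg

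The SOX letters occurred in 16.5% and the MYRF letters in 5.93% of 32851 mouse promoter windows of this length. The Mobp window held 6 SOX matches, the highest number found in any of these windows, whereas 0.0213% of them held 4 or more. Cnp had 1 SOX and 1 MYRF match. Mag had 1 of each at the start site shown and at another, and 0 at the one inside the gene's span. Opalin had 1 SOX match and Mog 1 MYRF match, and the windows of Cldn11, Ugt8a and Qdpr held neither. A match is a description of the letters and shows no binding, and the absence of one says only that these letters are not in this window. The promoter of Mbp was not used here.

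Whole-number counts summed to between 4990643 and 6617759 per KO library and between 4684039 and 5425774 per WT library, the highest total being 1.41 times the lowest. Of the KO libraries KO 1 was the shallowest, at 4990643 counts, while the other 4 were each deeper than every WT library, so that depth and genotype cannot be told apart except through KO 1. Upf3b itself was at 2.76 ± 0.877 CPM in KO and 38.3 ± 2.48 CPM in WT (SD, n = 5 and 7), which is 7.20% of the WT level, and no library went against its label. Levels are in CPM, that is counts scaled to a common library size, on library sizes scaled with TMM, a normalization that assumes that most genes do not differ. Each log2 fold change is that of KO relative to WT and is printed with its SE, from edgeR's quasi-likelihood test across 14274 tested genes, with Benjamini-Hochberg adjusted p under 0.05 counted as a call. Since 1 library was made per mouse, the p-values rest on the spread between libraries of a group, in which mice, library preparation and depth are not separated.

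Of the 9 genes, 3 were lower in KO and 0 were higher, and 6 did not pass the test. The 3 were Qdpr, Cnp and Mbp, with log2 fold changes of -0.30, -0.19 and -0.22, that is 81.6%, 87.5% and 86.0% of their WT levels. By the same test 14.4% of all tested genes were lower and 15.3% higher. The median log2 fold change of the 9 genes was -0.14, and that of all tested genes 0.034. Without KO 2 and WT 4 together, KO 2 being part of the least alike pair of libraries (with WT 2, chi-square per degree of freedom 12.6), 6 were lower, the 3 and Cldn11, Opalin and Mag. In that fit 2189 of 14249 tested genes were lower and 2166 higher. WT 4 was the lowest WT library for Cldn11, Opalin and Mag, so leaving it out raises their WT level. None of the 3 was called when the fold changes were computed relative to genes counted as densely, as described further on. In RNA of whole tissue, fewer oligodendrocytes and less of a transcript per cell cannot be told apart.

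**Figure D1:**
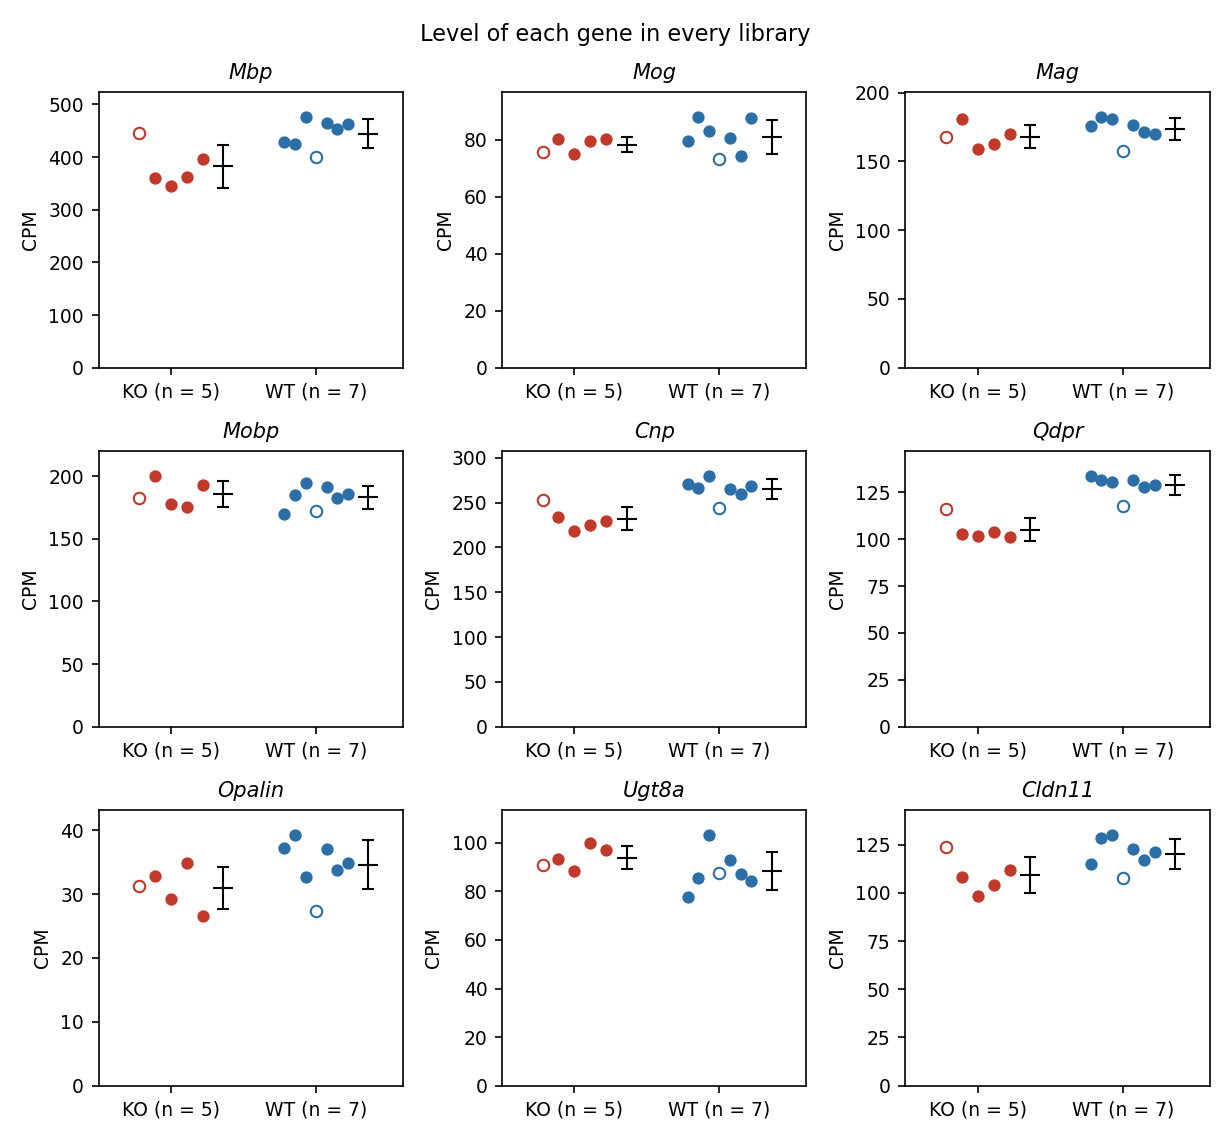
Level of each of the 9 genes in CPM (y axis, from 0) in the 5 KO libraries (red) and the 7 WT libraries (blue), with the mean and SD to the right of the points. Open circles mark KO 1 and WT 4, which lie nearest to the other group in Qdpr, at 116 and 118 CPM, and the groups overlap in each of the other 8 genes.

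Among the proteins of compact myelin, Mbp was lower in KO and Mobp was not. Myelin basic protein, the product of Mbp, draws the inner faces of the membrane together, and the mRNA is carried out to the growing sheath before it is translated. Mbp was at 446 CPM in KO 1, 360.0 in KO 2, 345 in KO 3, 362 in KO 4 and 397 in KO 6, against 400 CPM in the lowest, 453 in the median and 476 in the highest WT library. The KO libraries other than KO 1 all lay below the WT range, and KO 1 lay inside it. The log2 fold change was -0.22 ± 0.06 with an edgeR adjusted p of 0.0178. The call was lost without KO 3 (adjusted p = 0.0548) and without KO 4 (adjusted p = 0.0533), while without KO 1 the log2 fold change was -0.28.

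Mobp, whose product is another small basic protein of the compact sheath, was at 183, 200.1, 178, 175 and 193 CPM in KO 1, 2, 3, 4 and 6. In WT the lowest library had 170.1, the median 185 and the highest 195 CPM. The groups overlapped almost entirely, with KO 2 alone above the WT range. The gene spans 120149707 to 120181484 on the plus strand of chromosome 9 (mm10). The log2 fold change of Mobp was 0.02 ± 0.05 (edgeR adjusted p = 0.741).

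The adhesion and surface proteins Mag and Mog did not pass the test. Mag, the myelin-associated glycoprotein, sits on the innermost membrane facing the axon, and Mog, an immunoglobulin-like glycoprotein, on the outermost face of the sheath. Mag spans 30899176 to 30914873 on chromosome 7 and Mog 37010743 to 37023398 on chromosome 17, both on the minus strand (mm10). Mag was at 168 CPM in KO 1, 181 in KO 2, 159 in KO 3, 163 in KO 4 and 170.1 in KO 6, against 158, 176 and 182 CPM in the lowest, median and highest WT library. Mog was at 75.7, 80.3, 75.1, 79.7 and 80.4 CPM in the same KO libraries, against 73.1, 80.7 and 87.9 CPM in WT. In both genes all 5 KO libraries lay inside the WT range. The log2 fold changes were -0.05 ± 0.04 for Mag and -0.05 ± 0.05 for Mog, with edgeR adjusted p of 0.457 and 0.506.

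Cnp, whose product belongs to the noncompact sheath, was lower in KO, and the junction gene Cldn11 had a fold change in the same direction that missed the threshold. The enzyme encoded by Cnp, a cyclic nucleotide phosphodiesterase, keeps the cytoplasmic channels of the sheath open. Its mRNA was at 253 CPM in KO 1, 234 in KO 2, 218 in KO 3, 225 in KO 4 and 229 in KO 6, against 244 CPM in the lowest, 266 in the median and 280 in the highest WT library. As with Mbp, KO 1 lay inside the WT range and the other KO libraries below it. The log2 fold change of Cnp was -0.19 ± 0.04 (edgeR adjusted p = 0.00433), and it passed without any 1 of the 12 libraries. The gene lies on chromosome 11 at 100574904 to 100591729 (mm10, plus strand) and overlaps Dnajc7 on the other strand, which was at 119 ± 4.19 CPM in KO and 132 ± 5.94 CPM in WT. Without a stated strand setting, reads where they overlap cannot be assigned to 1 of them.

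Cldn11 encodes the claudin that forms the tight junctions between turns of central myelin, and spans 31149920 to 31164324 on the plus strand of chromosome 3. It was at 124, 108, 98.3, 104 and 112 CPM in KO 1, 2, 3, 4 and 6, against 107, 121 and 130 CPM in the lowest, median and highest WT library. In KO 3 and KO 4 it was below the WT range, and in the other KO libraries inside it. The log2 fold change of Cldn11 was -0.14 ± 0.06 (edgeR adjusted p = 0.0765). It passed without KO 1 (adjusted p = 0.0164) and without WT 4 (adjusted p = 0.0197).

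Opalin, a transmembrane glycoprotein of oligodendrocytes, was the least abundant of the 9 genes, with 147 to 227 counts per library. It was at 31.3 CPM in KO 1, 32.8 in KO 2, 29.3 in KO 3, 34.9 in KO 4 and 26.5 in KO 6, against 27.4, 34.9 and 39.3 CPM in the lowest, median and highest WT library. The gene spans 41061710 to 41077113 on the minus strand of chromosome 19. The lowest WT library was WT 4, and KO 6 was the only KO library below it. The log2 fold change was -0.16 ± 0.09 (edgeR adjusted p = 0.186), and without WT 4 it was -0.22 (adjusted p = 0.0326).

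Of the enzymes Qdpr was lower in KO and Ugt8a did not pass. Ugt8a encodes the transferase that makes galactosylceramide, a major glycolipid of myelin, and spans 125865271 to 125938619 on the minus strand of chromosome 3. It was at 90.8, 93.5, 88.3, 100 and 96.8 CPM in KO 1, 2, 3, 4 and 6, against 77.8, 87.1 and 103 CPM in the lowest, median and highest WT library, and all KO libraries lay inside the WT range. Its log2 fold change, 0.09 ± 0.06, did not pass (edgeR adjusted p = 0.273).

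Qdpr had the largest fold change of the 9. It encodes quinoid dihydropteridine reductase, which regenerates tetrahydrobiopterin, the cofactor of the aromatic amino acid hydroxylases, and in brain it is known as a transcript enriched in oligodendrocytes. The gene spans 45434021 to 45450236 on the minus strand of chromosome 5. Qdpr was at 116 CPM in KO 1, 103 in KO 2, 102 in KO 3, 104 in KO 4 and 101 in KO 6, against 118 CPM in WT 4, the lowest WT library, 131 in the median and 134 in the highest. All 5 KO libraries were below all 7 WT libraries, which held for 4.8% of the tested genes. KO 1 and WT 4 were nearly level and each stood apart from its own group. The log2 fold change was -0.30 ± 0.04 (edgeR adjusted p = 4.86e-04), and it was between -0.33 and -0.28 with any 1 library left out.

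The counts themselves spread less than the depth of the libraries in 4 of the 9 genes and more in 5. Mbp had 2182 to 2408 counts in KO and 2041 to 2254 in WT, so the highest count was 1.18 times the lowest where the library totals differed 1.41-fold. The same ratio was 1.24 for Cnp, 1.23 for Qdpr and 1.28 for Cldn11. It was 1.47 for Mag, 1.5 for Mog, 1.54 for Opalin, 1.59 for Mobp and 1.76 for Ugt8a. The 4 genes whose counts spread less than the totals are the 3 called genes and Cldn11, and the 5 that spread more are those with the largest p-values. This match is no separate observation. The KO libraries other than KO 1 were deeper than every WT library, so counts that hardly follow depth give lower CPM in KO by arithmetic. How duplicate reads were treated, which can change how the counts of densely covered genes follow depth, is not given in the sources used here, and its part in the calls of Qdpr, Cnp and Mbp under TMM scaling was not tested.

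Across all tested genes the fold change fell with count density, the mean number of counts per exonic base. Divided into 10 classes of like size by density, the tested genes with a length had a median log2 fold change of 0.25 in the sparsest class and -0.18 in the densest. The densest class held Mbp, Mag, Cnp, Qdpr and Cldn11, and the next one, with a median of -0.088, held Mog and Mobp. Ugt8a was in a class with a median of 0.017 and Opalin in one with a median of 0.064. Read against the median of their own class, Mag, Mobp and Ugt8a lay above it and Qdpr and Opalin below it by more than the SE of their fold change. Mbp, Cnp, Mog and Cldn11 differed from the median of their class by less than that SE.

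**Figure D2:**
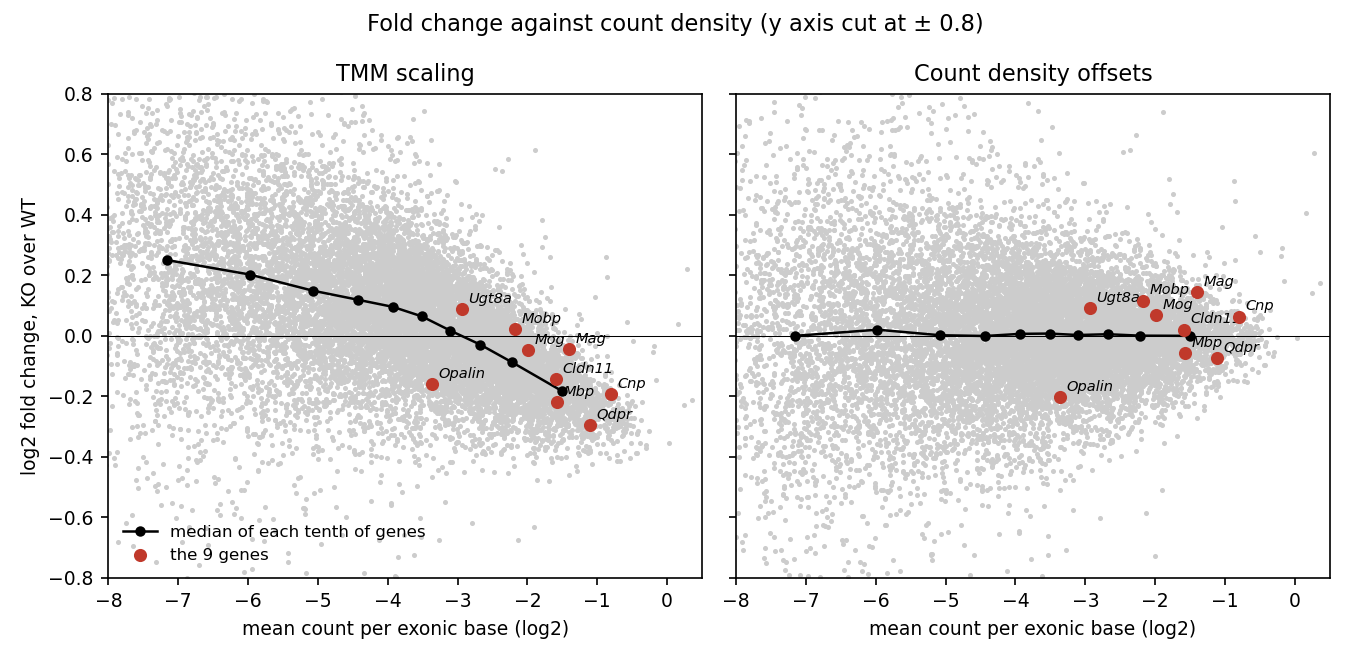
Log2 fold change, KO over WT (y axis), against the mean count per exonic base on a log2 axis for all tested genes with a length (grey), with the median of each of 10 density classes (black line) and the 9 genes (red). Under TMM scaling (left) the medians descend from 0.25 to -0.18. With count density offsets (right) they lie near 0 by construction, since the offsets take out each library's trend with density. Any genotype difference that follows density would be taken out with it.

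Each library was instead scaled along this trend, so that a gene was compared relative to genes of like density. In this edgeR fit 0 of the 9 genes were called. An unadjusted p under 0.05 was found for 4 of the 9, and for 4502 of all 14274 tested genes. With these offsets 7.86% of the tested genes were lower and 8.39% higher. The median log2 fold change of the 9 genes became 0.063, against 0.0027 for all tested genes. Qdpr was at -0.07 ± 0.03 (edgeR adjusted p = 0.118), Mbp at -0.06 ± 0.04 (adjusted p = 0.355) and Cnp at 0.06 ± 0.03 (adjusted p = 0.214). On this scale the direction of Cnp, Mag, Mog and Cldn11 turned, and Qdpr no longer had separate groups.

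The remaining genes sorted differently with the offsets. Mag had a log2 fold change of 0.14 ± 0.05 (edgeR adjusted p = 0.0562) and passed without KO 1 (adjusted p = 0.0150) and without WT 2 (adjusted p = 0.0457), in each case as higher in KO. Mobp was at 0.12 ± 0.05, Ugt8a at 0.09 ± 0.06, Mog at 0.07 ± 0.05 and Cldn11 at 0.02 ± 0.04. Opalin, the least densely counted, had the lowest value, -0.20 ± 0.09 (adjusted p = 0.138), and passed without WT 4 (adjusted p = 0.0312). Qdpr, Mbp and Opalin were below 0 and Ugt8a and Mobp above 0 in both scalings.

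With the log2 library total as a covariate of the edgeR fit, 95 genes in all were called, or 0.666%, and 0 of the 9 were among them. An unadjusted p under 0.05 was found for 1 of the 9, and for 1866 of all 14274 tested genes. In that fit Qdpr had a log2 fold change of -0.14 ± 0.05, Mbp of 0.06 ± 0.05 and Cnp of -0.04 ± 0.05. The median of the 9 was 0.0073. Depth and genotype overlap in this design, and the SE was larger than under TMM scaling for 8 of the 9 genes, Mbp being the exception.

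**Figure D3:**
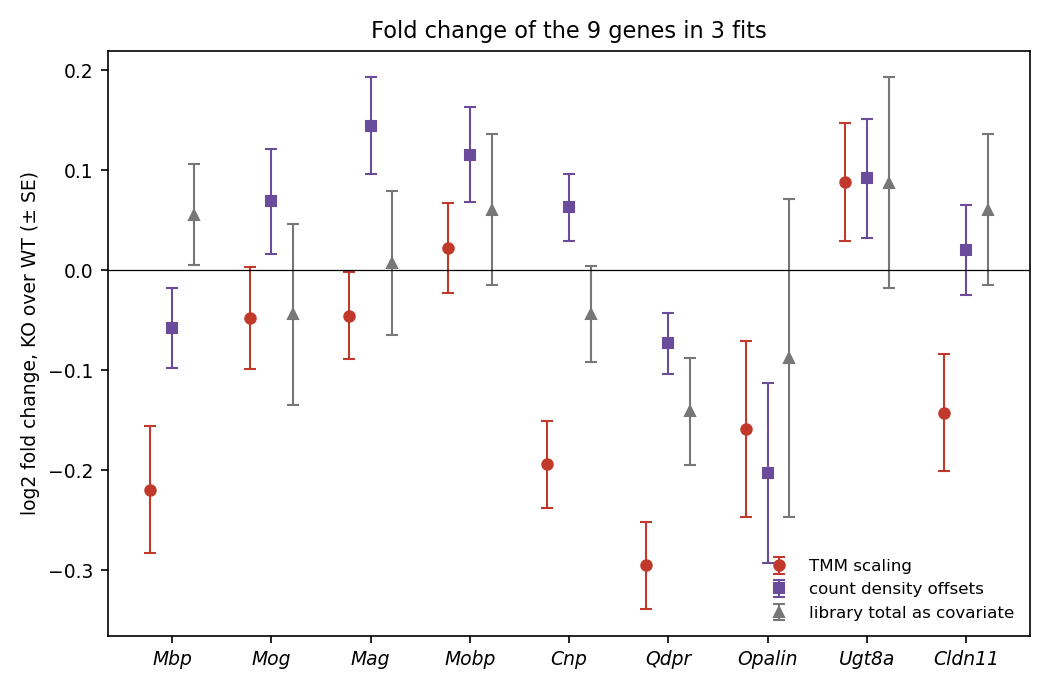
Log2 fold change, KO over WT, with its SE (y axis) for each of the 9 genes in 3 fits: TMM scaling (circles), count density offsets (squares) and the library total as a covariate (triangles). Qdpr lies below 0 in each fit, at -0.30, -0.07 and -0.14, while Mbp is at -0.22, -0.06 and 0.06.

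Per kilobase of exon, Cnp was the highest of the 9 genes in both groups, at 98.4 ± 5.50 CPM per kb in KO and 112 ± 4.65 in WT, and Opalin the lowest, at 16.8 ± 1.76 in KO and 18.8 ± 2.10 in WT. Between them came Qdpr at 76.2 in KO and 93.4 in WT, Mag at 69.1 and 71.3, Cldn11 at 58.3 and 64.3, and Mbp at 57.1 and 66.4 CPM per kb. Below these were Mog at 45.9 in KO and 47.5 in WT, Mobp at 41.5 and 40.9, and Ugt8a at 25.1 and 23.6 CPM per kb. The order was the same in both groups except that Cldn11 and Mbp, whose ranges overlapped in both, changed places. In KO the ranges of Qdpr and Mag also overlapped, as did those of Mag and Cldn11 and those of Mog and Mobp. In WT Mag overlapped Mbp, Mog overlapped Mobp and Ugt8a overlapped Opalin. Lengths are the union of exons of the GENCODE transcripts paired with a gene's RefSeq transcripts. That of Mbp, 6695 bases, draws on 8 RefSeq transcripts, some with exons outside the classic myelin form, which lowers its level per kilobase. The same length lowers its count density, on which its fold change and its correlations with the offsets rest. How these would change with a shorter length was not tested.

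Most pairs of the 9 genes correlated positively between mice of the same genotype, but pairs of other genes were not computed for comparison. After the mean of each group was subtracted, the 36 pairs of genes had a median Pearson r of 0.43 over the 12 libraries, and 34 pairs were above 0. The closest pair was Cldn11 and Cnp, at 0.88, followed by Qdpr and Cnp at 0.87. Against the mean of the other 8 genes, r was 0.86 for Cldn11, 0.83 for Cnp and 0.74 for Mag, and lowest for Opalin at 0.36 and Ugt8a at 0.20. All these values share the library, its depth and its count density trend. With the offsets the median was 0.39 and 30 pairs were above 0, with Cnp and Mag the closest at 0.92. Against the mean of the other 8 genes, r was then lowest for Mbp, at 0.22, where under TMM scaling it was 0.60. For Mbp the r with Qdpr was 0.72 under TMM scaling and -0.41 with the offsets, and with Cnp 0.82 and -0.22. With Cldn11 it was 0.84 and 0.65, with Mobp 0.40 and 0.41, and with Ugt8a 0.27 and 0.51.

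The summed level of the 9 genes was 1487, 1393, 1294, 1348 and 1406 CPM in KO 1, 2, 3, 4 and 6. In WT it was 1388 in the lowest library, WT 4, with a median of 1531 and a highest value of 1610 CPM. The groups overlapped through WT 4, which was lower than 3 of the KO libraries. Genes most like the mean of the 9 in the same residual correlation, out of 12194 genes compared, were 2810468N07Rik (r = 0.89), Cox20 (0.86), Zer1 (0.86), Ubl5 (0.83), Pcnp (0.83), Cldnd1 (0.82), Fam214b (0.82) and Hspa9 (0.82). With the offsets their r ran from 0.34 for Ubl5 to 0.81 for Zer1.

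Other genes of the sheath and of the lineage were read from lists drawn up for this comparison. Of 20 further structural genes of myelin, 9 were lower in KO and 2 higher under TMM scaling, against 14.4% and 15.3% of all tested genes. With 1 library left out 7 to 9 of the 20 were lower and 0 to 2 higher. Gpm6b, a membrane glycoprotein gene, was at 435 ± 36.4 CPM in KO and 520.0 ± 24.5 CPM in WT (SD, n = 5 and 7), with a log2 fold change of -0.26 and an edgeR adjusted p of 0.0028. The tetraspanin gene Cd9 (-0.24), the gene of the lipid-raft protein Mal (-0.19) and that of the oligodendrocyte surface glycoprotein Omg (-0.18) were lower too. Nfasc, which anchors the sheath beside the node, had 0.10 and Tspan2 -0.07, and neither passed. With the offsets 0 were lower and 1, the axonal and glial adhesion gene Cntn2, was higher, against 7.86% and 8.39% of all tested genes. The number higher was 0 without KO 2, KO 4 or KO 6 and 2 without KO 1, KO 3, WT 4 or WT 6. The median of the list was -0.09 with TMM and -0.00069 with the offsets.

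Of 17 genes of myelin lipid synthesis, 6 were lower and 1 higher under TMM scaling, against 14.4% and 15.3% of all tested genes. With 1 library left out 4 to 6 of the 17 were lower and 0 or 1 higher. Hmgcs1, an early enzyme of cholesterol synthesis, was at 229 ± 15.0 CPM in KO and 277 ± 9.98 CPM in WT, a log2 fold change of -0.28 (edgeR adjusted p = 7.56e-04). The stearoyl-CoA desaturase Scd2 had -0.27, the autotaxin gene Enpp2 -0.21, the dihydroceramide desaturase Degs1 -0.17 and the acid sphingomyelinase Smpd1 -0.16. The call of Enpp2 was lost without KO 2, KO 3 or KO 6 (adjusted p of 0.0507 to 0.0539). Abca2, a lipid transporter of oligodendrocytes, was at 371 ± 13.3 CPM in KO and 347 ± 23.3 CPM in WT and did not pass (adjusted p = 0.155), and Acsl1 had a log2 fold change of -0.03. With the offsets 0 were lower and 1, Abca2, was higher, at 0.20 (adjusted p = 0.0166), against 7.86% and 8.39% of all tested genes.

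**Figure D4:**
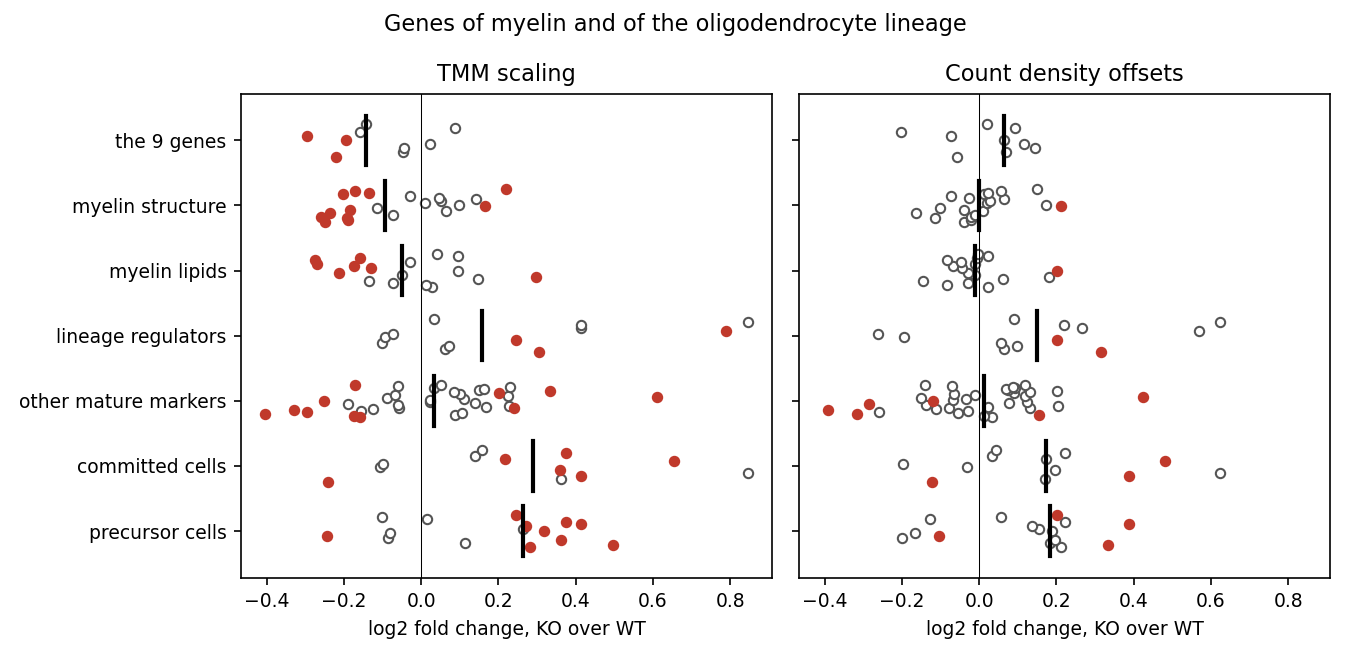
Log2 fold change, KO over WT (x axis), of the 9 genes and of 6 lists of myelin and lineage genes (rows), under TMM scaling (left) and with count density offsets (right). Filled points passed edgeR's test, open ones did not, and bars mark medians. The median of the 9 genes is -0.14 on the left and 0.063 on the right, and that of the precursor genes 0.26 and 0.18.

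Of 12 regulators of the lineage, transcription factors and the RNA-binding protein gene Carhsp1, 3 were higher in KO and 0 lower under TMM scaling, against 15.3% and 14.4% of all tested genes. Without WT 4 there were 5 of the 12 higher. Myrf, the master regulator of myelin genes, was at 94.3 ± 12 CPM in KO and 76.3 ± 6.48 CPM in WT, with a log2 fold change of 0.31 (edgeR adjusted p = 0.00838). Olig2 was at 50.4 ± 2.39 CPM in KO and 42.5 ± 2.63 CPM in WT (0.24, adjusted p = 0.00394), and the zinc finger gene Zfp488 was higher by 0.79. Olig1 and Carhsp1, at -0.10 and 0.03, did not pass, but without KO 1 Olig1 was lower (-0.14, adjusted p = 0.0218). With the offsets Myrf (0.32) and Olig2 (0.20) remained calls, and 1 gene of the list was called without KO 4. The shares of all tested genes with the offsets were 8.39% higher and 7.86% lower.

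Of 15 precursor genes 8 were higher and 1 lower under TMM scaling, where 15.3% of all tested genes were higher and 14.4% lower, and 3 were higher and 1 lower with the offsets, against 8.39% and 7.86%. With the offsets 5 were higher without WT 3, and 2 were higher without KO 4. The number lower with the offsets was 0 without KO 2, KO 3 or KO 4. The list was sparsely counted, with a median of 0.052 counts per exonic base, and the density class that holds this value had a median log2 fold change of 0.12 under TMM scaling. The median of the list was 0.26, and 0.18 with the offsets. The proteoglycan gene Cspg4, which marks precursor cells, was at 41.4 ± 6.25 CPM in KO and 29.5 ± 3.10 CPM in WT (log2 fold change 0.50, edgeR adjusted p = 0.00189). Gpr17, a receptor switched on briefly in committed cells, was at 122 ± 12 CPM in KO and 91.4 ± 11.1 CPM in WT (0.41, adjusted p = 0.00197). With the offsets these were 0.33 and 0.39 and both passed. The proteoglycan gene Cspg5 went the other way, at -0.24 and -0.10 in the 2 scalings, passing in both, and Ptprz1 at 0.11 and 0.18 passed in neither. Olig2, Gpr17 and Neu4 stand in this list and in one of the others as well. No test compared this list with the 9 genes.

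Of 12 genes of committed oligodendrocytes 5 were higher and 1 lower under TMM scaling, against 15.3% and 14.4% of all tested genes. With the offsets 2 were higher and 1 lower, against 8.39% and 7.86%. Genes of the list higher under TMM scaling included Cnksr3 (log2 fold change 0.65), the sialidase gene Neu4 (0.37) and the calcium channel gene Itpr2 (0.36), besides Gpr17. Bcas1, known as a marker of actively myelinating cells, was lower, at 135 ± 6.03 CPM in KO and 159 ± 5.52 CPM in WT (-0.24, edgeR adjusted p = 7.18e-04), and stayed lower with the offsets (-0.12, adjusted p = 0.0154), where without KO 4 no gene of the list was called lower. The kinase gene Fyn (-0.11) and Rras2 (-0.10) did not pass, though Fyn did without KO 1 (adjusted p = 0.0106) or WT 6 (adjusted p = 0.0313).

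Of 35 further markers of mature oligodendrocytes 4 were higher and 7 lower under TMM scaling, against 15.3% and 14.4% of all tested genes. With the offsets 2 were higher and 4 lower, against 8.39% and 7.86%. Under TMM scaling the number of the list that was higher was 1 without KO 2 or KO 4 and 2 without WT 5 or WT 6. With the offsets it was 1 without KO 2 or KO 4, and the number lower was 2 without KO 3. Apod, a lipocalin gene of mature oligodendrocytes, was at 70.8 ± 9.13 CPM in KO and 93.3 ± 3.92 CPM in WT, with log2 fold changes of -0.40 (edgeR adjusted p = 7.65e-04) and -0.32 with the offsets (adjusted p = 0.00234). Plekhb1 was lower in both scalings, at -0.25 and -0.12. The neuregulin receptor gene Erbb3 was higher in both, at 0.61 and 0.43. The carbonic anhydrase gene Car2 and the phosphodiesterase gene Pde4b, both -0.17 under TMM scaling, did not pass with the offsets, and Secisbp2l (-0.07) and Phldb1 (0.08) passed in neither.

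The receptors that bind Mag, Omg and Nogo, listed with their ligands, had 2 of 9 lower and 0 higher under TMM scaling. Both were ligand genes, that of Nogo, Rtn4 (log2 fold change -0.22), and Omg, which also stands in the structural list above. The shares of all tested genes were 14.4% lower and 15.3% higher in that scaling, and 7.86% and 8.39% with the offsets. Lrp1 (0.20, edgeR adjusted p = 0.0564) and Lingo1 (-0.23, adjusted p = 0.0618) did not pass, but Lrp1 did without WT 4 or WT 6 and Lingo1 without KO 1 or WT 4. With the offsets Lrp1 alone was called, as higher (0.28), and without KO 6 none was. Of 10 axonal partners of the sheath Cadm3 (-0.17) and Cntn1 (-0.11) were lower under TMM scaling, with the call of Cntn1 lost in 9 of the 12 fits that left out 1 library, and with the offsets 3 were higher, among them Cntnap1 and Scn8a, and 0 lower. Without KO 1, KO 3, KO 4, KO 6, WT 1, WT 3 or WT 5 that number was 1. Scn8a, a sodium channel gene of the axon, had 0.05 under TMM scaling and 0.15 with the offsets.

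Markers of other cell types moved as well, and their part in the results above was not tested. The shares of all tested genes were 14.4% lower and 15.3% higher under TMM scaling, and 7.86% and 8.39% with the offsets. Under TMM scaling 7 of 10 microglial markers were lower in KO, with a summed level of 569 to 606 CPM in KO and 638 to 792 CPM in WT, and 5 of 10 astrocyte markers, with 2420 to 2866 CPM in KO and 2664 to 3155 CPM in WT. Of 8 markers of cortical excitatory neurons 3 were lower (summed 1381 to 1995 CPM in KO and 1625 to 2032 CPM in WT), of 7 of interneurons 2, and of 8 of endothelium 3 were higher. With the offsets 4 microglial markers, 1 astrocyte marker and 0 of the other lists in this paragraph passed, all as lower. Genes of the neighbouring striatum (603 to 1437 CPM summed over all libraries) had 0 of 8 called. Choroid plexus genes, at 10.4 to 84.6 CPM summed in KO and 5.25 to 101 CPM in WT, had 0 of 3 called. Of the Schwann cell markers Prx was called higher under TMM scaling.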

How the data were processed

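RNA of the frontal cortex of 5 Upf3b-null and 7 wild-type mice was measured, with groups and mouse numbers taken from the sample titles. The authors deposited 1 table of raw read counts, whole numbers for each gene in each library, and the file shows no scaling or pooling. STAR and mm10 are named per the submitters' processing notes, and per the labels' protocols RNA came from a Trizol and column extraction. The read counter, its strand setting and the treatment of duplicate reads remain unknown here, so counts of overlapping genes are uncertain, and so is how far the counts of densely covered genes follow depth.

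Of the 14909 genes, 23 had symbols turned into dates, which were restored from their accessions. Exonic lengths are unions of GENCODE exons, those of the transcripts paired with a gene's RefSeq transcripts for 14734 genes and all those under the symbol for 123. The test was that of edgeR 4.0.16 under R 4.3.3 (filterByExpr by group, TMM factors, a quasi-likelihood model of genotype alone, Benjamini-Hochberg adjustment over 14274 genes, threshold 0.05), and CPM were computed on TMM-scaled totals. Correlations use log2 CPM with a pseudocount of 0.5 CPM. Between mice of 1 genotype the edgeR biological coefficient of variation came to 8.11%. The most alike libraries, WT 6 and WT 7, had a chi-square of 1.02 per degree of freedom, against 1.19 for the next pair, KO 3 and KO 4. Counting noise alone gives about 1, so WT 6 and WT 7 showed almost no spread between mice. They were counted separately, as their titles name different mice, and whether they share RNA was not tested.

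Alternatives were upper-quartile factors or the size factors of DESeq2 in the same fit, DESeq2's own Wald test (version 1.42.0), voom with limma 3.58.1, no filter, at least 1 CPM in at least 5 libraries as the filter, the mouse number as an additive term (replicate block), each library left out, KO 2 and WT 4 left out together, a covariate for the log2 library total, and offsets per library from a loess trend (span 0.3) of the log2 ratio to the mean library on the mean count per exonic base. The offsets combined with the block, or with each library left out, were chosen after seeing the data. The fits were tested on simulated data.

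The 9 genes, the lists and these settings were chosen with earlier results of these data known. Genes named are the 9, Upf3b, of each lineage list up to 5 that pass by smallest p and up to 2 that do not by largest mean CPM, and the 8 genes with a mean log2 CPM of at least 3 most correlated with the mean of the 9. Other genes were named after their values were seen. A few genes that this rule or the lists name are left out of the text.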

Additional observations from a re-analysis of the deposited data

Results flagged for a closer look

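In 18 groups of libraries, the KO and the WT libraries of each of the 9 genes, 2 libraries lay far from the rest of their group, where chance flags about 1 in 20 groups. Both concern Qdpr, the gene of dihydropteridine reductase. KO 1, with 116.18 CPM, was the highest of the 5 KO libraries, the others having 101 to 104 CPM. WT 4, with 117.74 CPM, was the lowest of the 7 WT libraries, the others having 128 to 134 CPM. KO 1 was the shallowest KO library, at 4990643 counts, and WT 4 the deepest WT library, at 5425774 counts. The part of depth in these 2 values was not tested by itself. With each library scaled along the count density trend, neither library stood apart in this way in Qdpr, at 6.80 for KO 1 (others 6.78 to 6.90) and 6.88 for WT 4 (others 6.90 to 6.97) on the log2 scale.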

How the results depend on the processing

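Between 2 and 5 of the 9 genes were called with 1 library left out, and 6 without KO 2 and WT 4 (4355 genes in all), while 3 were called with other size factors, tests and filters. Density offsets gave 0 of 9 and 2319 genes in all, against 4233 under TMM scaling, and the library total as a covariate 0 of 9 and 95 genes. The median log2 fold change of the 9, -0.14 under TMM scaling, was 0.063 with the offsets and 0.0073 with the covariate. With 1 library left out, offset fits included, the number of genes called ran from 1473 to 4887, that of the 9 from 0 to 5, and the median from -0.18 to 0.087. With the mouse number as a replicate block 2315 genes and 2 of the 9 were called (Mbp adjusted p = 0.0869), and with offsets and replicate block together 581 genes and 0 of the 9, with a median of 0.057. The numbers share no stated litter or day, and deviations of same-numbered mice correlated at 0.14, -0.37, -0.06, -0.04 and 0.01 for mice 1, 2, 3, 4 and 6. These correlations also carry trends of whole libraries, so they cannot decide whether same-numbered mice shared a litter, day or batch.

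These directions turned. With the offsets Mog was at 0.069, Mag at 0.14, Cnp at 0.063 and Cldn11 at 0.020, and with offsets and replicate block at 0.089, 0.13, 0.057 and 0.025. With the covariate Mbp was at 0.056, Mag at 0.0073 and Cldn11 at 0.060, and without KO 2 and WT 4 Mobp was at -0.033. Over fits with 1 library left out, offset fits included, Mog ran from -0.086 to 0.10, Mag from -0.082 to 0.18, Mobp from -0.0059 to 0.14, Cnp from -0.23 to 0.087 and Cldn11 from -0.19 to 0.049. Among other genes Olig1 turned to 0.056 with the offsets and 0.063 with the covariate, Carhsp1 to -0.070 with the covariate and -0.016 without KO 2 and WT 4, Car2 to 0.012 and Cntn1 to 0.040 with the offsets, and Lingo1 to 0.060 with the covariate. With 1 library left out Carhsp1 ran from -0.045 to 0.061. The cause of these changes was not tested beyond the construction of each fit. Depth limits Opalin most, with 147 counts in its lowest library.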

Other observations

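Calls shared by both scalings ran through different stages of the lineage. Gpr17, Cnksr3, Cspg4, Myrf, Olig2, Erbb3 and Cntn2 were higher in KO under TMM scaling and with the offsets, and Bcas1, Apod, Plekhb1, Cspg5 and Ppp1r14a were lower in both, while none of the 9 genes was called in both. The share of all tested genes called in both scalings is not given here, so these calls cannot be set against it. With offsets and replicate block together, the lists of regulators, committed cells and precursors had 0 calls. In that fit the list of further mature markers had 1 gene lower and 0 higher, and the structural list 1 higher and 0 lower. Library WT 4 had the lowest level of 7 of the 9 genes among the WT libraries, the exceptions being Mobp and Ugt8a, which were lowest in WT 1. With the log2 library total as a covariate none of the lineage genes named here was called, and of the marker lists of other cells only the microglial gene Fcrls was.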
